A study of Mus musculus with 4 samples.

Results

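The 31 genes described here encode mouse chemokine receptors, receptors for the lysophospholipid sphingosine-1-phosphate (S1P) and a few receptors for related lipids. They were grouped by family and function, with no accessibility value in the rule, and fall into 6 roles. Chromatin accessibility around them was read from ATAC-seq, in which the transposase Tn5 inserts sequencing adapters into open DNA, and each library is represented by its list of called accessible regions. All 31 genes were found among the 21631 protein-coding genes on chromosomes 1 to 19 and X of the RefSeq table for GRCm38.p6, the assembly also called mm10. A region counted as lying around a gene when it touched the gene body or the 10 kb on either side. By this rule 108 of 76814 regions of the control DN3 list, 106 of 76437 of the knockout DN3 list, 90 of 46576 of the control naive list and 92 of 51297 of the knockout naive list belonged to the receptors.

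The study compared mice deficient in SCD1, stearoyl-CoA desaturase, an enzyme that introduces a double bond into saturated fatty acids, with littermate controls. Both genotypes gave DN3 thymocytes, an immature stage that rearranges the T cell receptor beta chain, sorted from thymus as cells without lineage markers, CD4, CD8 or CD44 and with CD25. Both also gave naive CD4 T cells, prepared from spleen with magnetic beads and not further sorted. The cells were primary and untreated. The controls' titles carry the code SCD1HZ, which the labels do not explain, and neither the ages nor the number of animals in a library is given. Each of the 4 groups is 1 library, so no difference between groups has a replicate check, no test was run, and every interval below covers counting error only.

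Chemokine receptors are G protein-coupled receptors that direct cell migration along gradients of small secreted chemokines, and S1P receptors do the same for S1P, which is abundant in blood and lymph and low inside tissues. In the thymus such receptors position progenitors between cortex and medulla and later guide mature thymocytes out. In naive T cells they steer entry into, movement within and exit from lymphoid organs. Atypical chemokine receptors bind chemokines without signalling through G proteins and remove them from the surroundings.

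The depth of a library was not read directly. The whole number of fragments at each summit was recovered from the deposited fold and p, and the genome-wide background came to 4.721 (control DN3), 4.474 (knockout DN3), 5.116 (control naive) and 3.653 fragments (knockout naive). Relative height below is summit fragments divided by that background, and an unlisted region is one that was not called, which says nothing of signal below the threshold. As a check of the labelled cells, a gene-end region, one that comes within 1 kb of either annotated end of a gene, was sought at markers. Of 10 DN3 markers, all 10 had one in both DN3 lists, 6 of them in all 4 lists. Ptcra, Rag2 and Dntt, genes of the pre-T cell receptor and its rearrangement, had none in the naive lists, and Rag1 had a weak one in the knockout naive list. At Il2ra, Notch1, Notch3, Dtx1 and Cd3e the −log10 q was higher in both naive lists than in both DN3 lists, and at Hes1 it was lower. These values increase with depth, and the list medians were 33.8 and 30.52 in control and knockout DN3 and 53.46 and 41.12 in control and knockout naive cells. Values of −log10 q set side by side here and below are therefore not on one scale across lists. All 9 matched naive CD4 T markers had one in all 4 lists. Of all genes, 66.7% and 66.5% had one in control and knockout DN3 and 57% and 58.6% in control and knockout naive cells. Of other cell types, 4 of 7 B cell markers were called in each list. Cr2, Ebf1 and Cd79b were called in all 4, with a higher −log10 q in both DN3 lists, and the defining gene Ms4a1 in none. Cd79a was called in both naive lists, with a −log10 q of 54.5 and 53.8, and in knockout DN3 with 3.36. In control DN3 Cd79a was not called, and Pax5 was, with 1.94. The fold at Cd79a in the naive lists was 2.62 in the control and 2.99 in the knockout. Cd79a ends at position 24901858 of chromosome 7, and the span of Arhgef1, called in all 4 lists, begins at 24902986. Whether the Cd79a call belongs to Arhgef1 was not tested. Of 8 myeloid markers, 4 were called in each list except knockout DN3 with 5. Cebpa, Cd14 and Spi1 were called in all 4, Lyz2 in DN3 alone, Itgam in naive cells alone, and Csf1r and Adgre1 in none. The −log10 q at Cebpa was 133 and 152 in control and knockout DN3 and 40.2 and 38.4 in control and knockout naive cells. At Spi1 the order was the reverse, with 21.3 and 18.6 in DN3 and 76.8 and 69.4 in naive cells. Cd14 had 108 and 84.1 in DN3 and 117 and 84.9 in naive cells. Of 6 NK cell markers, 4 were called in each DN3 list and 3 in each naive list, with Klrb1c in DN3 alone and Ncr1 and Klra8 in none. The regions around the B cell markers numbered 42 and 40 in the DN3 lists and 16 and 22 in the naive lists, those around the myeloid markers 33 and 24 against 18 and 18, and those around the NK markers 12 and 13 against 6 and 5. What cells other than the labelled ones add to the receptor regions was not tested. At Scd1 itself the strongest gene-end region had a −log10 q of 75.8 in the control DN3, 50.8 in the knockout DN3, 25 in the control naive and 19 in the knockout naive list, so the gene's end was accessible in both genotypes, and such a region does not check the deletion.

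At their annotated ends, 25 of the 31 receptors had a region in control DN3 cells, against 66.7% of all genes, and 26 in knockout DN3 cells, against 66.5%. In naive cells 19 had one in the control, against 57% of all genes, and 19 in the knockout, against 58.6%. The same 19 genes were called in all 4 libraries, a pattern seen at 56.1% of all genes. Cxcr2, Ackr3, Ackr4, S1pr3, S1pr5 and Lpar1 were called in both DN3 libraries and in neither naive library, 6 of 31 where 7.57% of all genes have this pattern, and the counting interval on that share runs from 9.19% to 36.3%. None had the reverse pattern, which 0.347% of all genes show. Ccr1, Ccr3, Ccr4, Ccr6 and Ackr1 were called in no library, as are 31.8% of all genes. Ackr2 was called in knockout DN3 alone. Counting any region in the gene body or the 10 kb on either side, 30 receptors had one in control DN3 (79.1% of all genes), 30 in knockout DN3 (78.9%), 26 in control naive (70.3%) and 26 in knockout naive cells (71.8%). Cxcr2, Ackr3, Ackr4 and Lpar1 had such regions in both DN3 and neither naive library, 4 of 31 beside 6.73% of all genes.

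**Figure D1:**
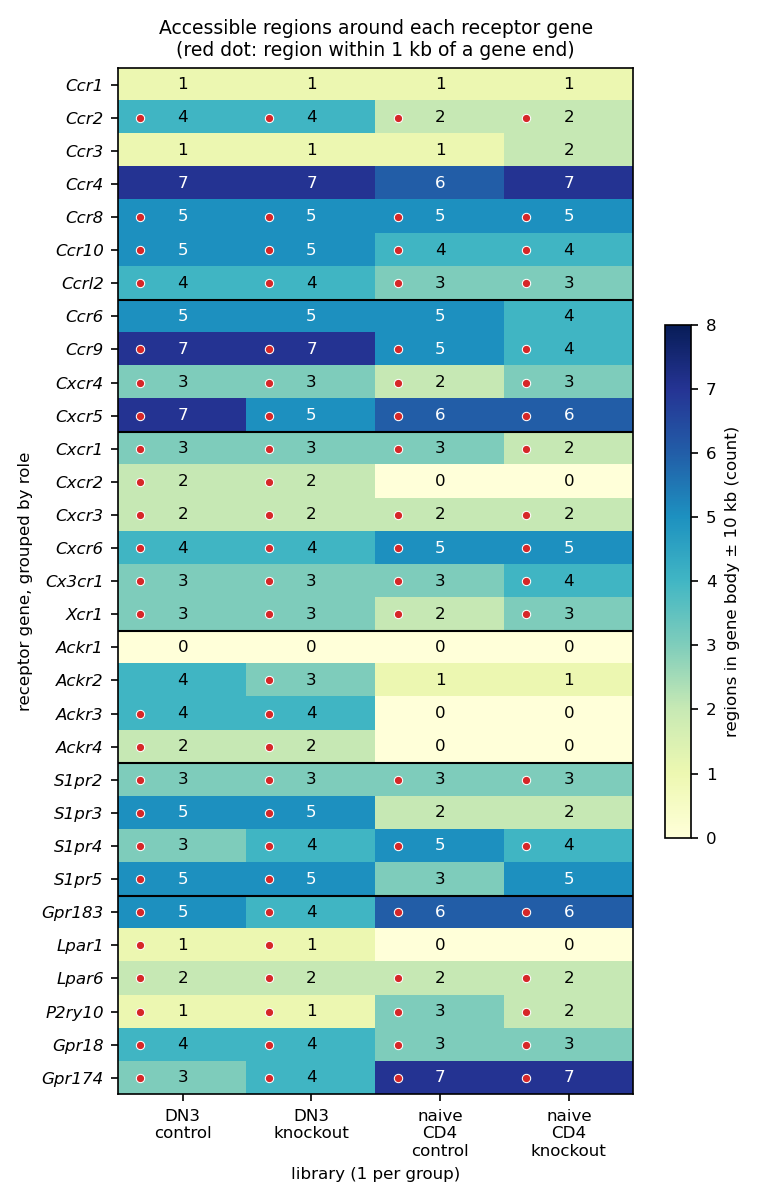
Number of accessible regions in the gene body and 10 kb on either side of each of the 31 receptor genes (rows, grouped by role) in the 4 libraries (columns, 1 per group); a red dot marks a region within 1 kb of an annotated gene end. Ackr3, Ackr4, Cxcr2 and Lpar1 hold regions in the DN3 columns and 0 in the naive columns, and Ackr1 holds 0 in all 4.

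Strand and start sites were in the RefSeq promoter table for 29 of the 31 genes, all but Ccr10 and Cxcr5. Within 1 kb of a start site, Cxcr2, Ackr3, S1pr3, S1pr5 and Lpar1 were called in both DN3 and neither naive library, a pattern of 6.67% of all genes. Ccr2, Ccr6 and Gpr174 were called in both naive and neither DN3 library, a pattern of 0.197% of all genes. The 250 bases before the start site are given 5′ to 3′ on the strand of the gene for 4 of the former, for the second start of Ccr6 as one of the latter, and for Cxcr4, whose start had the most summit fragments of these 29 genes' starts in all 4 libraries. They come from RefSeq on GRCm38.p6. Capitals mark matches on either strand to short motifs of factor families with known roles in T cells. RUNX was searched as TGTGGT. The ETS motif was searched as CCGGAA. The E-box, which reads alike on both strands, was searched as CAGCTG. The motif of TCF and LEF was searched as CTTTGA. The GATA motif was searched as AGATAA. The GC box was searched as CCGCCC, and the related KLF motif was searched as CCACCC. None of the marked matches overlap, and a match is a description of letters, not of binding.
Ackr3, chr1:90203730-90203979, plus strand: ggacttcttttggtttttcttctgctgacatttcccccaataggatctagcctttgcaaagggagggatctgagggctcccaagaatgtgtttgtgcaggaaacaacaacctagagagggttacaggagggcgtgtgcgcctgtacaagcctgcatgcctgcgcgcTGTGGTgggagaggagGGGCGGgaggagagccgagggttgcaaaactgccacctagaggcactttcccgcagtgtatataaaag
S1pr3, chr13:51408368-51408617, plus strand: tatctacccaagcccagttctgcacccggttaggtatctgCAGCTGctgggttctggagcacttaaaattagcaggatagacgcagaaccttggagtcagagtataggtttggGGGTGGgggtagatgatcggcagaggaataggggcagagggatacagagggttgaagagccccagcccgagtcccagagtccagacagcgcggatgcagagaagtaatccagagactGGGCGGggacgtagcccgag
S1pr5, chr9:21248444-21248693, minus strand: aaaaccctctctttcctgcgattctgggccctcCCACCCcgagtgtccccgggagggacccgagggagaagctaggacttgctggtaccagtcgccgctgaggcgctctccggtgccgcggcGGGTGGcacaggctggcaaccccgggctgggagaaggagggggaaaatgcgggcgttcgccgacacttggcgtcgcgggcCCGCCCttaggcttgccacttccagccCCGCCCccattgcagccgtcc
Lpar1, chr4:58553492-58553741, minus strand: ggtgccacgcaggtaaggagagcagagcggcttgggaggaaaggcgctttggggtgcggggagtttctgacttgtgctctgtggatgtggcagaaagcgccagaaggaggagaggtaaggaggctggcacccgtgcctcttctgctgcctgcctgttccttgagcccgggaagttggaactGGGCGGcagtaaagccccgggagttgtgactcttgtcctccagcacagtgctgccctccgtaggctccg
Ccr6, second start, chr17:8242276-8242525, plus strand: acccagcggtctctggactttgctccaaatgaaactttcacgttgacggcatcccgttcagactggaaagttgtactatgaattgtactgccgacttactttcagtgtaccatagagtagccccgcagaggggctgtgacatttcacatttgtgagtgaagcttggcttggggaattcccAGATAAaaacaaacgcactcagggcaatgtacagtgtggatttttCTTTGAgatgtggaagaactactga
Cxcr4, chr1:128592300-128592549, minus strand: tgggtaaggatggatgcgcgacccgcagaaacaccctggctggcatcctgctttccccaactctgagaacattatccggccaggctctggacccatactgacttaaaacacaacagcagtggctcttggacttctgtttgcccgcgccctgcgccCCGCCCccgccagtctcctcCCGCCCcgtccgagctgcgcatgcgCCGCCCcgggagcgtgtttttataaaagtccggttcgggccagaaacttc

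The Ackr3 window held a RUNX match 84 bases and a GC box 68 bases before the start. The S1pr3 window held an E-box 210 bases, a KLF match 137 bases and a GC box 20 bases before it. Both S1pr5 and Cxcr4 windows held more than a single GC box, and the Ccr6 window held a GATA and a TCF/LEF match and no GC box. Over the 21045 windows of this length in the table, 12.2% hold the RUNX letters, 15.1% ETS, 12.2% the E-box, 12.8% TCF/LEF, 8.84% GATA, 43.1% the GC box and 30.4% the KLF letters. The 6 receptor windows overlapped by a DN3 region in both genotypes and by no naive region had a median GC content of 59.2% and a median of 10 CpG, beside 60.8% and 12 CpG for all 1222 windows with that pattern. The 17 receptor windows overlapped in all 4 libraries had a median of 50% GC and 3 CpG, beside 61.2% and 17 CpG for the 11031 such windows of all genes. Windows of 1 gene overlap each other where it has several starts, so these medians describe windows and not independent genes.

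Among the inflammatory CC receptors, which draw effector and memory cells to inflamed tissue and skin, 4 of 7 genes had a gene-end region in each library. Of all genes, 57% to 66.7% had one, depending on the library. Ccr2 (chr9:124101918-124109140), the receptor for Ccl2, had 1 region upstream of its start with 30, 31, 178 and 97 summit fragments in control DN3, knockout DN3, control naive and knockout naive cells. Its −log10 q was 6.68, 9.66, 129 and 70.3 in the same order. By rank within its own list it lay among the strongest 88.7%, 78.6%, 30.5% and 36.8% of regions. The naive regions reached to within 1 kb of the RefSeq start and the DN3 regions did not. The DN3 libraries instead held a region 1.3 kb downstream of the Ccr2 start, with 61 and 58 fragments, and another 2.9 kb upstream, with 44 and 42 fragments, neither listed in naive cells. Ccr8, a receptor of regulatory and type 2 helper T cells, had a region at its start with 57, 49, 132 and 103 fragments and all 5 regions around it in every library. At Ccr10, which binds the skin and mucosal chemokines Ccl27 and Ccl28, the strongest gene-end region had 172 and 158 fragments in the DN3 libraries, while another region had 364 and 326 in the naive libraries. The former lies within 1 kb of an end of Plekhh3 and the latter of Cntnap1, so these calls are shared with neighbouring genes.

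Ccr4 (chr9:114490316-114505476), the receptor for Ccl17 and Ccl22, had no gene-end call although its RefSeq start, inside the annotated gene span, carried a region in all 4 libraries. That region had 189, 173, 285 and 202 fragments and a −log10 q of 111, 98.9, 186 and 132. The gene-end rule therefore missed an accessible start at this gene. Ccrl2, a non-signalling receptor that presents the protein chemerin, had 139, 154, 139 and 100 fragments in a joint region over its start. The median summit of this joint region lay 1.7 kb downstream of the start. Each DN3 list held 2 regions within it, and the strongest was used. Relative to the median region its height was 1.23-fold higher in DN3 in the control (0.963 to 1.56) and 1.65-fold in the knockout (1.28 to 2.15). Another region 10.1 kb downstream had 112 and 113 fragments in DN3 and 50 and 45 in naive cells. Ccr1, a receptor for Ccl3, had a single region in its window, 8.3 kb downstream of its start, with 29, 22, 47 and 36 fragments. Ccr3, the eotaxin receptor of eosinophils, had 1 region 17.2 kb downstream of its start in every library, with 59, 53, 100 and 76 fragments.

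The homing receptors include the best known thymic members. Ccr9 (chr9:123767211-123783457) directs progenitors and developing thymocytes towards Ccl25 and later marks cells bound for the small intestine. At its start the summit held 215, 183, 70 and 33 fragments, with a −log10 q of 110, 87.2, 16.1 and 5.48. Both DN3 libraries were above both naive libraries, and relative to the median region the height was 3.77-fold higher in DN3 for the control (counting interval 2.87 to 5.01) and 5.95-fold for the knockout (4.09 to 8.9). A region 10.3 kb upstream was listed in both DN3 and neither naive library, with 378 and 349 fragments and a −log10 q of 187 and 167. By −log10 q it was exceeded among receptor regions with that pattern by the start of Ackr3 alone. Further DN3 regions lay 4.2 and 3.2 kb upstream, with 102 and 97 and with 81 and 84 fragments. In naive cells the upstream side instead carried 1 region 8.4 kb from the start, with 116 and 75 fragments. A region 2.6 kb inside the gene had 109, 110, 103 and 80 fragments, a smaller difference of 1.3-fold (0.983 to 1.72) in the control and 1.47-fold (1.1 to 1.99) in the knockout, both higher in DN3.

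Cxcr4 (chr1:128588199-128592299), the receptor for Cxcl12 that acts with the pre-T cell receptor in the thymus, had 404, 412, 663 and 545 fragments at its start and a −log10 q of 164, 166, 327 and 303. The start was accessible in all 4 libraries and lay among the strongest 10.4% to 13.8% of the regions of each list. Cxcr5 (chr9:44511787-44526444), the follicle-homing receptor of B cells and follicular helper T cells, had 8 joint regions around it. The gene-end region at its lower coordinate held 283, 259, 414 and 248 fragments, and it also lies within 1 kb of an end of Bcl9l. The region at its higher coordinate was listed in naive cells alone, with 158 fragments and a −log10 q of 83.1 in the control and 143 fragments and 83.3 in the knockout. With a gene-end window of 500 bp Cxcr5 was therefore called in the naive libraries alone, as was Ccr10. Ccr6, the receptor for Ccl20, had no region at its first start. A naive region 6.3 kb into the gene, over the second RefSeq start, had 25 and 20 fragments, with a −log10 q of 7.92 and 4.4, and was not listed in DN3. The DN3 libraries listed regions 15.8 kb and 19.7 kb inside Ccr6, with 52 and 48 and with 70 and 57 fragments, that naive cells lacked.

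**Figure D2:**
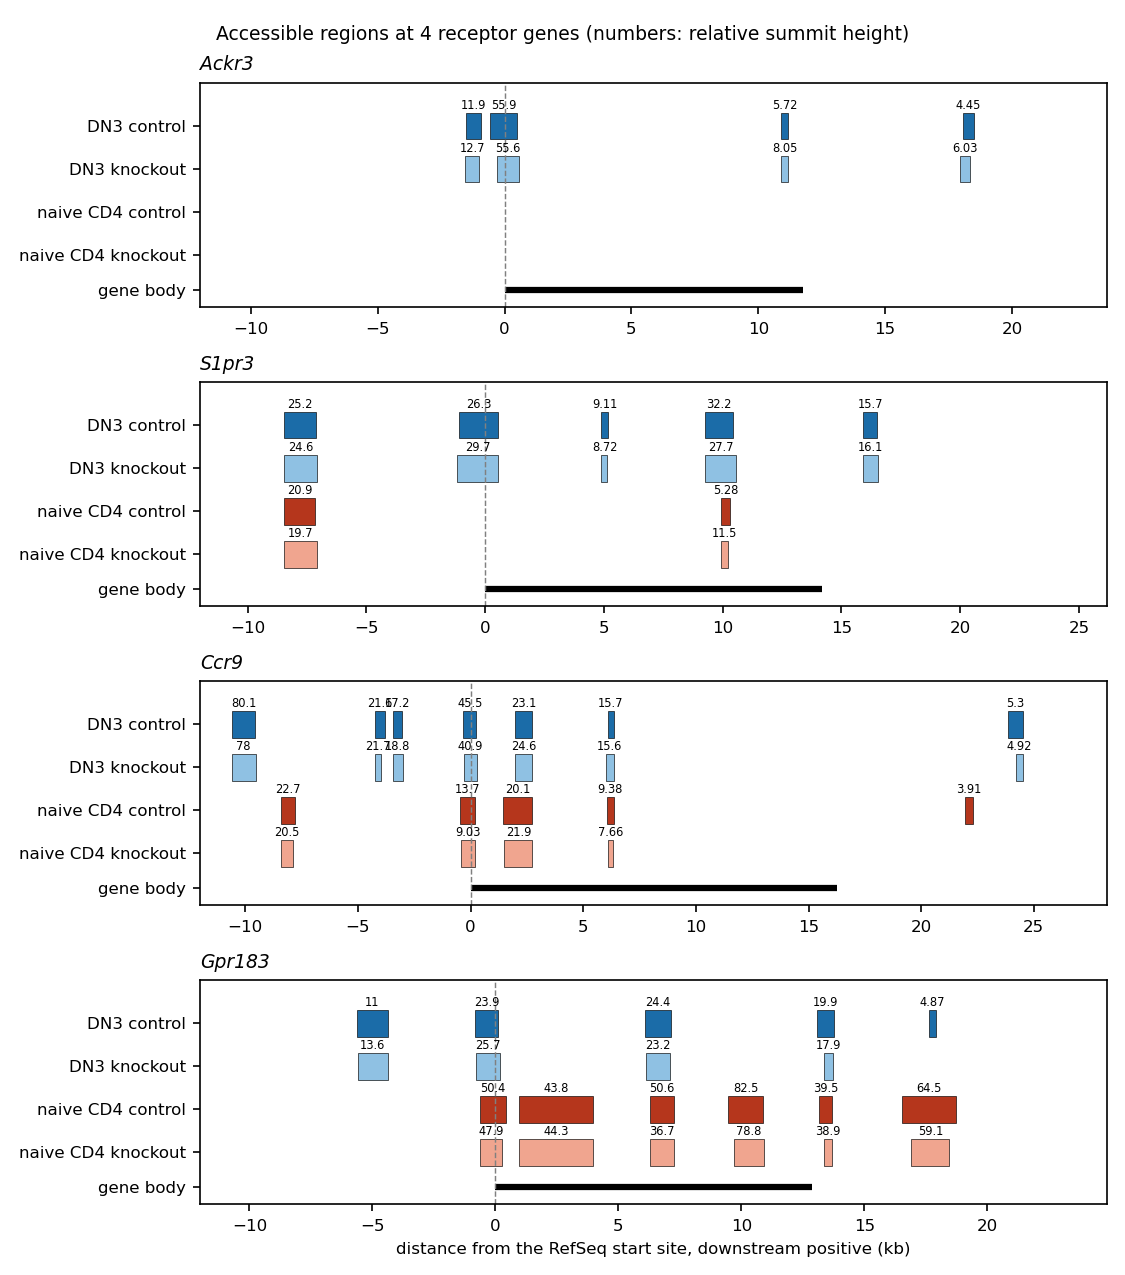
Called regions at Ackr3, S1pr3, Ccr9 and Gpr183 drawn to scale as bars in the 4 libraries, against distance from the RefSeq start site in kb, downstream positive, with the gene body in black and the relative summit height (summit fragments over genome background) above each bar. Ackr3 has bars in DN3 only, the tallest at the start with heights of 55.9 and 55.6; Ccr9 has a DN3 bar of 80.1 and 78 upstream; Gpr183 has a naive bar of 82.5 and 78.8 inside the gene.

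Of the remaining CXC, CX3C and XC receptors, all 6 had gene-end regions in DN3 and 5 in naive cells. The shares of all genes were 66.7% and 66.5% in control and knockout DN3 and 57% and 58.6% in control and knockout naive cells. Cxcr1 and Cxcr2, the neighbouring neutrophil receptors on chromosome 1, differed in this respect. Cxcr2 (chr1:74153994-74161246) had a weak start region with 22 and 16 fragments and a −log10 q of 6.98 and 3.51 in DN3, and no region in naive cells anywhere in its window. The start of Cxcr1 had 32, 19, 102 and 70 fragments, higher in both naive than in both DN3 libraries. Cxcr3, a receptor of type 1 effector T cells, had 104, 108, 55 and 60 fragments at its start, higher in both DN3 libraries. A region 5.7 kb downstream of that start, with 83 and 83 fragments, was listed in DN3 alone. Cxcr6, which binds Cxcl16, had 97, 89, 187 and 157 fragments at its start and, 8.1 kb downstream, a region of 63, 59, 300 and 186 fragments. Both regions were higher in naive cells by height, and both lie inside Fyco1. Cx3cr1 (chr9:120048683-120068296), the fractalkine receptor of monocytes, NK cells and cytotoxic effector T cells, had a modest start region of 51, 33, 65 and 60 fragments. The region 6.4 kb upstream of it was listed in naive cells alone, with 279 and 259 fragments and a −log10 q of 168 and 181, the highest of any receptor region with that pattern. A region inside Cx3cr1 was strong in all 4 libraries, with 221, 221, 434 and 333 fragments. Xcr1, the receptor of cross-presenting dendritic cells, had no region at its start in any library. Its gene-end call came from the far end, 10.2 kb downstream, where 486, 454, 812 and 492 fragments were counted within 1 kb of an end of Fyco1.

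Atypical chemokine receptors held 10 joint regions, of which 8 were listed in both DN3 and neither naive library, beside 28.3% of all joint regions. The 4 genes had 1 region between them in naive cells. Ackr3 (chr1:90203980-90215724), which scavenges Cxcl12 and so shares a ligand with Cxcr4, had the strongest DN3 start region of this pattern. Its summit held 264 fragments in the control (exact Poisson interval 233 to 298) and 249 in the knockout (219 to 282). The −log10 q was 188 and 190, among the strongest 10.5% and 9.98% of the control and knockout DN3 lists. Further DN3 regions lay 1.2 kb upstream of the Ackr3 start, near its far end and 18.3 kb downstream, with 56 and 57, 27 and 36, and 21 and 27 fragments. Ackr4, which scavenges Ccl19, Ccl21 and Ccl25, had no region at its start. It had a DN3 region at its far end, 28.3 kb downstream, with 68 and 52 fragments, and another 3.4 kb inside the gene with 55 and 57, and both lie inside Acad11, which overlaps it. Ackr2, which scavenges inflammatory CC chemokines, had a DN3 region of 41 and 40 fragments near its far end in both genotypes. In the control this region stopped just beyond the 1 kb limit, which is why only the knockout was called, and with a 2 kb window both were. Ackr1, the Duffy receptor of red cells and venules, had no region in any library.

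All 4 S1P receptors examined had gene-end regions in DN3, beside 66.7% and 66.5% of all genes in control and knockout. In naive cells 2 of them, S1pr2 and S1pr4, had one, near the 57% and 58.6% of all genes. S1pr3 (chr13:51408618-51422797) had 124 fragments at its start in the control and 133 in the knockout DN3 library, with a −log10 q of 58.9 and 69.8, and no start region in naive cells. A region 10.2 kb inside the gene was listed in all 4 libraries, with 152, 124, 27 and 42 fragments. Relative to the median region its height was 6.91-fold (4.57 to 10.8) higher in DN3 in the control and 3.17-fold (2.22 to 4.61) in the knockout. The region 7.9 kb upstream of S1pr3 had 119, 110, 107 and 72 fragments, 1.36-fold (1.04 to 1.79) higher in DN3 in the control and 1.64-fold (1.21 to 2.24) in the knockout, while its deposited fold was higher in naive cells. S1pr5 (chr9:21242917-21248443), used by NK cells and memory T cells to leave tissues, had a weaker DN3 start region of 58 and 57 fragments, with a −log10 q of 13.1 and 13.5. It was not listed in naive cells, although naive regions lay 3.8 kb inside the gene, with 121 and 123 fragments. When every list was kept to its 46576 strongest regions, the S1pr5 and Cxcr2 calls in DN3 were lost, and those at Ackr3, Ackr4, S1pr3 and Lpar1 stayed. These 4 receptors stand beside 3.85% of all genes called in both DN3 and neither naive library at that length. With a 2 kb window S1pr5 was called in all 4 libraries and Ackr2 in both DN3 libraries alone. With a 500 bp window Ackr4 was called in none, and with a −log10 q of at least 5 Cxcr2 was called in control DN3 alone. At these settings, in the same order, 6, 5 and 5 receptors were called in DN3 alone in both genotypes, beside 7.97%, 7.01% and 7.44% of all genes. S1pr2, a receptor coupled to inhibition of migration, had 325, 291, 425 and 299 fragments at its start, with a −log10 q of 195, 171, 290 and 202. S1pr4 (chr10:81497745-81500137), a lymphocyte S1P receptor, had the strongest gene-end region of all receptors in the DN3 lists, with 604, 531, 814 and 604 fragments and a −log10 q of 342, 288, 422 and 322. That region lies 3.7 kb downstream of the S1pr4 start, within 1 kb of an end of Ncln. The region closest to the S1pr4 start had 161, 172, 450 and 301 fragments, higher in both naive libraries.

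**Figure D3:**
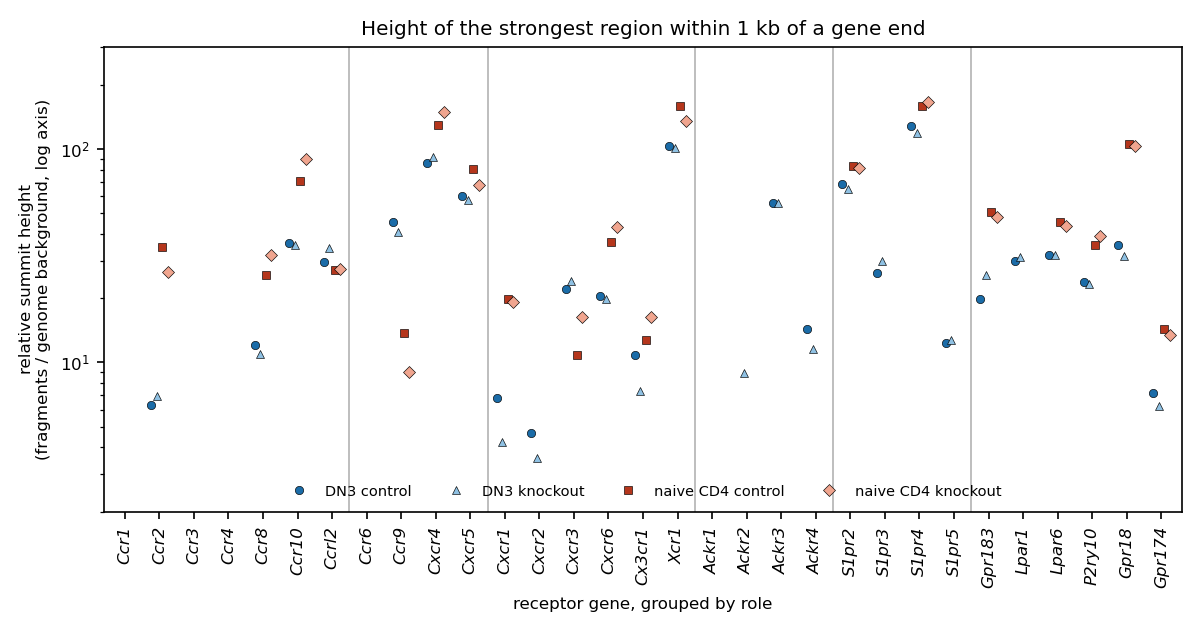
Relative summit height (summit fragments over genome background, log axis) of the region with the highest −log10 q within 1 kb of either gene end, for each receptor (horizontal axis, grouped by role) in the 4 libraries (1 point each, no replicates). Ackr3, Ackr4, Cxcr2, S1pr3, S1pr5 and Lpar1 have points in both DN3 libraries and none in naive cells, and Ackr2 has a knockout DN3 point alone; Ccr9 and Cxcr3 sit higher in DN3, and Ccr2, Cxcr1 and Gpr18 higher in naive cells.

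The other lipid-sensing receptors held more regions in naive than in DN3 cells, 21 and 20 against 16 and 16. Gpr183 (chr14:121952331-121965193), also called EBI2, guides lymphocytes by oxysterols. It had 2 regions listed in naive cells alone, the stronger 10.4 kb inside the gene with 422 fragments and a −log10 q of 115 in the control and 288 and 96.6 in the knockout. Another region 18.3 kb downstream of its start had 330 and 216 fragments in naive cells, 23 in control DN3 and was not listed in knockout DN3. At the Gpr183 start the summit held 113, 115, 258 and 175 fragments. Gpr18, its neighbour within the gene Ubac2, is a receptor proposed to bind endogenous lipids, and its start held 167, 141, 538 and 377 fragments, with a −log10 q of 84.7, 66.2, 277 and 200. Both naive libraries were higher, by 2.63-fold (2.2 to 3.14) in the control and 2.49-fold (2.05 to 3.05) in the knockout relative to the median region.

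Gpr174 and P2ry10, neighbouring X-linked receptors for lysophosphatidylserine, both held more regions in naive cells. Around Gpr174 (chrX:107255878-107296771) 3 regions were listed in DN3 control, 4 in DN3 knockout and 7 in each naive library. Its start region was listed in naive cells alone, with 24 and 19 fragments and a −log10 q of 7.64 and 6.64. P2ry10 had 113, 104, 181 and 143 fragments at its start, and an internal region 8 kb downstream, with 44 and 36 fragments, in naive cells alone. The lysophosphatidic acid receptor genes went separate ways. Lpar1 (chr4:58435252-58554027) had 1 region in its whole window, at its start and in DN3 alone, with 141 and 139 fragments and a −log10 q of 86.6 and 86.3. Lpar6, which lies inside Rb1, had 151, 142, 232 and 159 fragments at its start in the 4 libraries.

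Merging the 4 lists gave 134 joint regions around the receptors, none in the windows of more than 1 of them. Of these, 65 were listed in all 4 libraries, a share of 48.5% beside 41.5% of all 90270 joint regions. A further 33 around 19 genes were listed in both DN3 and neither naive library, 24.6% (18.1% to 32.6%) beside 28.3%, a share within the counting interval. Another 17 around 12 genes had the reverse pattern, 12.7% (8.07% to 19.4%) beside 5.11%. The DN3 lists are longer, and this balance depends on it. With each list kept to its 46576 strongest regions, 13 of 110 joint regions were DN3-only, 11.8% beside 16.1% of all, and 27 were naive-only, 24.5% beside 14.8%. In both settings the naive-only share was above that of all regions. By role, DN3-only regions made up 8 of 10 around the atypical receptors, beside 28.3% of all joint regions. The 8 of 28 around the homing receptors were near that share. Naive-only regions were most frequent around the other lipid-sensing receptors, with 7 of 27, beside 5.11% of all. Of the 26 regions at start sites, 16 were listed in all 4 libraries, 6 were DN3-only and 4 naive-only. Shares over the start-site regions of all genes were not computed, so these counts have no background and only describe the receptors.

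Among the 65 regions listed in all 4 libraries, heights were compared relative to the median of all 37418 such regions. At least 2-fold higher in naive cells in both genotypes were 7 of 65, beside 5.31% of all, and at least 2-fold higher in DN3 were 4 of 65, beside 13.8%. The naive-high regions were the starts of Cxcr1 and Gpr18, the upstream region of Ccr2, and distal regions of S1pr4, Lpar6, Cxcr6 and Xcr1. The S1pr4 region lies inside Gna15, the Cxcr6 region inside Fyco1 and the Lpar6 region inside Rb1, so they are shared with other genes. Of the naive-high regions Ccr2 had the largest ratio in the control, 4.84-fold (3.27 to 7.38), and 2.92-fold (1.93 to 4.52) in the knockout. The Cxcr6 region differed 3.88-fold (2.95 to 5.18) and 2.94-fold (2.18 to 4.01), and the Cxcr1 start 2.6-fold (1.73 to 3.99) and 3.43-fold (2.05 to 6.04). The DN3-high regions were the Ccr9 start, the internal region of S1pr3, the downstream region of Ccrl2 and a region 7.5 kb upstream of Ackr2. The last had 153, 122, 89 and 64 fragments, while its deposited fold of 12.5, 12.1, 12.7 and 13 gave the opposite order. Without centring on the median region, 13 regions in place of 7 passed the 2-fold limit towards naive cells, beside 9.05% of all regions in place of 5.31%, and 3 in place of 4 towards DN3, beside 9.04% in place of 13.8%.

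**Figure D4:**
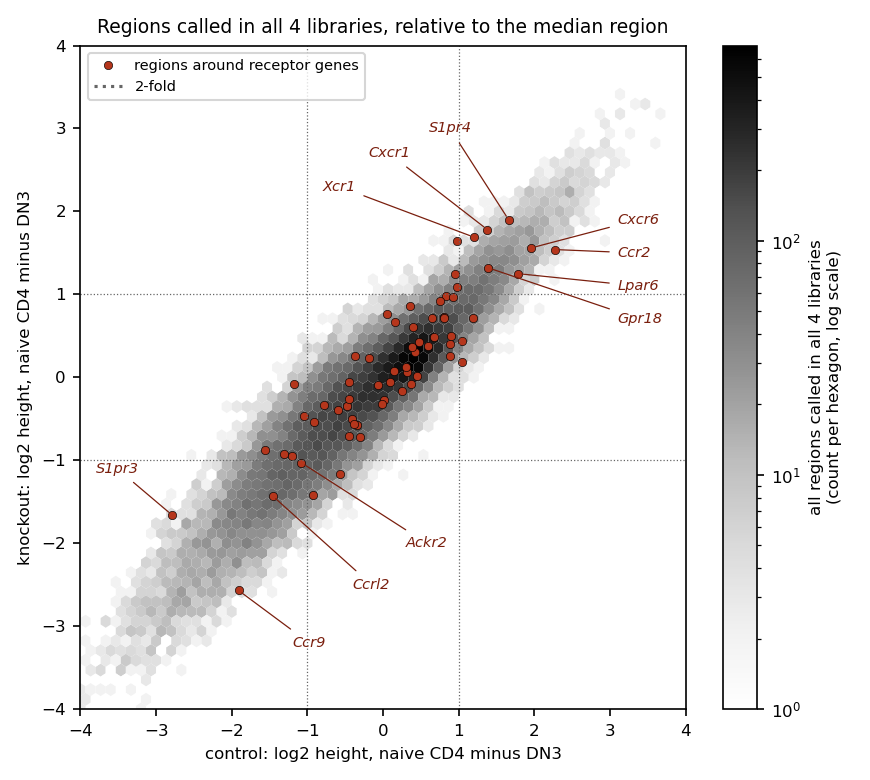
Log2 difference in relative summit height, naive CD4 minus DN3, in controls (horizontal) and knockouts (vertical) for regions listed in all 4 libraries, centred on the median region; grey hexagons count all 37418 regions on a log scale and red points are the 65 around receptors. Named points pass 2-fold in both genotypes: 7 are higher in naive cells and 4 in DN3, with Ccr9 and S1pr3 lowest.

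The deposited fold, which divides the summit by the local background, did not always give the same order as the height. For this comparison heights were not centred on the median region. In 12 of the 65 regions, 18.5% beside 11.8% of all, both genotypes were higher in naive cells by height and lower by fold. After centring, a region 12.9 kb downstream of the S1pr5 start was lower in naive cells, at 0.954 and 0.939 of DN3 in control and knockout. Regions of Cxcr4, Cxcr5 and Cxcr6 among the 12 were then lower in naive cells in the knockouts alone. The 3 Gpr183 regions listed in all 4 libraries belonged to the 12 and stayed higher in naive cells after centring. At its downstream end the fold was 8.06, 7.83, 1.92 and 2.35 while the fragments numbered 94, 80, 202 and 142. The local background there came to 10.8, 9.34, 105 and 59.9 fragments in the same order, so the naive summits with more fragments stood on a higher local background. The opposite conflict, lower in naive cells by height and higher by fold, was found in 6 of the 65, 9.23% beside 6.2% of all, among them the Ackr2 region and the upstream region of S1pr3. At the Cxcr6 start the fold was 13, 12, 10.4 and 11.9 for 97, 89, 187 and 157 fragments. Over all regions around the receptors the median deposited fold was 6.08, 5.86, 5.47 and 6.37, beside 6.82, 6.63, 7.68 and 7.95 over the whole lists. The median −log10 q was 35.2, 36.7, 44.2 and 39.6, beside 33.8, 30.5, 53.5 and 41.1.

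Few receptor regions were listed in 1 genotype and not in the other. In DN3 cells 4 of 108 control regions, 3.7% beside 10.4% of all, had no counterpart in the knockout list, and 2 of 106 knockout regions, 1.89% beside 9.48%, had none in the control. In naive cells 6 of 90 control regions, 6.67% beside 5.77%, and 8 of 92 knockout regions, 8.7% beside 12.4%, had none. Between cell types the shares were larger: 36.1% of control DN3 regions had no counterpart in control naive cells, beside 47.2% of all, and 23.3% of control naive regions none in control DN3, beside 15%. In the knockouts these shares were 34.9% beside 43.3% and 23.9% beside 16%.

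Of the 134 joint regions, 9 were listed in 1 library alone, a share of 6.72% beside 17% of all joint regions, with a −log10 q of at most 13.1. The control DN3 list alone held a region inside Cxcr5, with 42 fragments and a −log10 q of 9.74, and one beyond Ackr2 with 21 fragments. The knockout DN3 list alone held one near the end of S1pr4, with 113 fragments, a fold of 1.71 and a −log10 q of 5.48. The control naive list alone held regions at P2ry10 (32 fragments, −log10 q 10.4), Gpr174 (27, 7.26) and Ccr9 (20, 5.02). The knockout naive list alone held regions at Ccr3 (27, 13.1), Cx3cr1 (61, 7.28) and Gpr174 (20, 3.61). Apart from Ackr2 no receptor differed between genotypes in its gene-end call, beside 1.11% of all genes called in control DN3 alone, 0.911% in knockout DN3 alone, 0.37% in control naive alone and 1.93% in knockout naive alone.

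In regions listed in both genotypes of a cell type, heights relative to the median region were at least 2-fold apart in 0 of 105 regions in DN3, where 0.0503% of all regions were that much higher in the knockout and 0.0784% in the control. In naive cells the count was 0 of 85, beside 0.464% and 0.0823%. The log2 difference, knockout minus control, ran from -0.7 to 0.52 in DN3, where 5% to 95% of all regions lie between -0.45 and 0.37. In naive cells it ran from -0.76 to 0.96, beside -0.45 to 0.59. The highest naive value belonged to the internal region of S1pr3, with 27 control and 42 knockout fragments. The lowest belonged to the Ccr9 start, with 70 and 33. In DN3 the lowest was a region 16.8 kb downstream of the Xcr1 start, with 54 and 31 fragments, and the highest the far-end region of Ackr3, with 27 and 36. These extremes rest on few fragments and have no replicate.

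**Figure D5:**
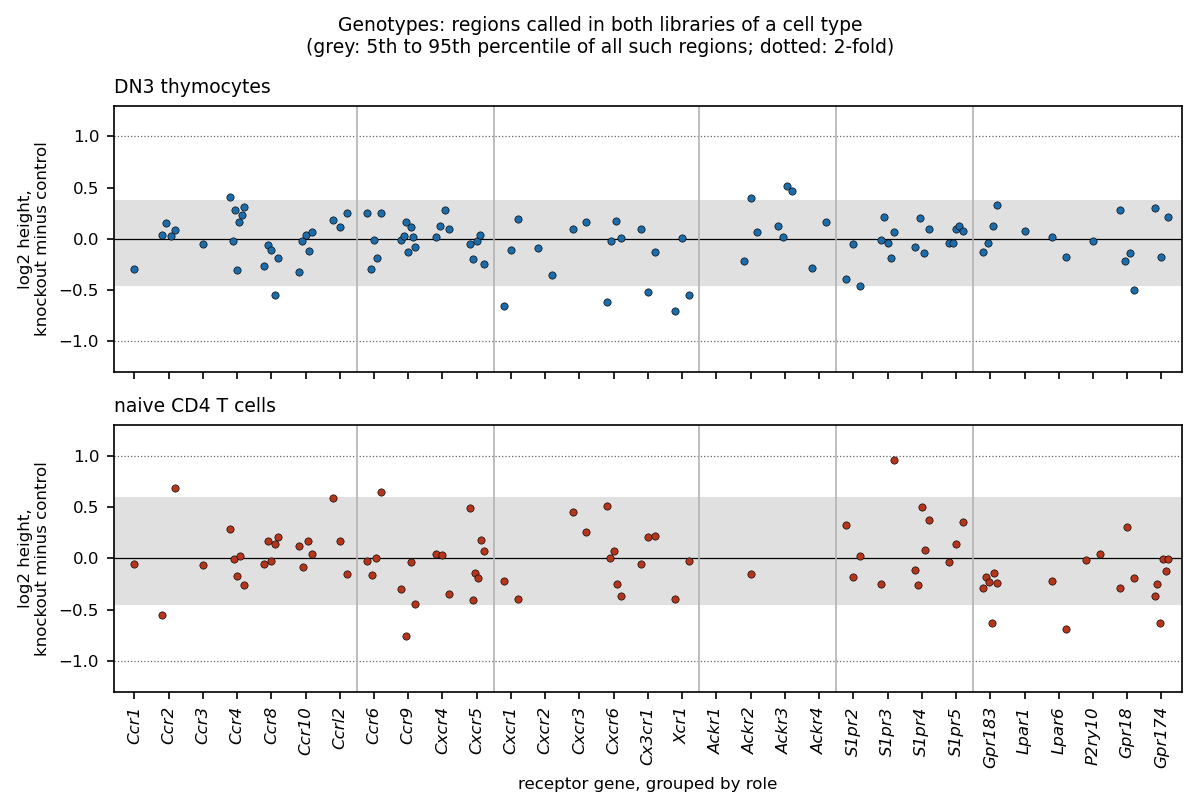
Log2 difference in relative summit height, knockout minus control and centred on the median region, for every receptor region listed in both genotypes of DN3 thymocytes (upper) and naive CD4 T cells (lower), by gene; the grey band spans the 5th to 95th percentile of all such regions. All points lie inside the dotted 2-fold lines, between -0.7 and 0.52 in DN3 and between -0.76 and 0.96 in naive cells.

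The ligands of these receptors are made mainly by stromal, epithelial and myeloid cells. Of 18 chemokine ligand genes, 12 had a gene-end region in each DN3 library, beside 66.7% and 66.5% of all genes in control and knockout, and 7 in each naive library, beside 57% and 58.6%. The DN3 count is near the share of all genes. Cxcl12, Cx3cl1, Ccl3, Ccl4 and Ccl28 were called in both DN3 and neither naive library, 5 of 18 beside 7.57% of all genes, with Ccl3 and Ccl4 sharing 1 region. The region at Cx3cl1, the ligand of Cx3cr1, had a −log10 q of 82.7 and 77. That at Cxcl12, the ligand of Cxcr4 and Ackr3, had 19.6 in the control and 54.4 in the knockout. Of 21 genes for G protein signalling, desensitisation and migration downstream of the receptors, all 21 were called in each DN3 library, 20 in control naive and 21 in knockout naive cells, above the same shares of all genes. The exception was Grk3, a receptor kinase, which was not listed in control naive and weak in knockout naive cells, with a −log10 q of 2.65. Of 14 genes that make, export or break down S1P, lysophospholipids and oxysterols, 12 and 12 were called in DN3, 9 in control naive and 11 in knockout naive cells. Beside the shares of all genes, 66.7%, 66.5%, 57% and 58.6%, the control naive count lies near its share. Cyp7b1, which breaks down the Gpr183 ligand, was called in DN3 alone, with a −log10 q of 40.6 and 41.6. It was 1 of 14 with this pattern, near the 7.57% of all genes. Spns2, the S1P exporter, and Pla1a, which makes lysophosphatidylserine, were missing from the control naive list alone. In knockout naive cells they had a −log10 q of 16.8 and 11.4. Of all genes, 1.93% were called in knockout naive and not in control naive cells, as Grk3 also was. The knockout naive list is the longer, with 51297 regions against 46576.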

How the data were processed

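ATAC-seq libraries from DN3 thymocytes and splenic naive CD4 T cells of SCD1-deficient and littermate control mice were grouped by their genotype and cell type labels, 1 library per group. The submitters' processing notes name Trimmomatic, BWA, MACS2 and mm10. Tool versions, peak calling settings, duplicate handling and any Tn5 shift were not given in the sources used here. Regions were called per library. In the deposited lists the fold is a ratio, summit pileup over that library's local background. Both −log10 p and −log10 q, as deposited, describe the summit and increase with depth, so they rank regions within a list. The deposited score, a scaled −log10 q, was not used.

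Whole numbers of summit fragments were recovered that gave back the deposited −log10 p within 0.05 for 100.0% of regions in each list. Medians of summit fragments were 69 and 63 in control and knockout DN3 and 103 and 75 in control and knockout naive cells. Joint regions merged overlapping regions of the lists, with an overlap of 1 bp or more. Gene ends and names came from the RefSeq table of GRCm38.p6; a gene-end region lies within 1 kb of either end. The 31 genes, their roles and the 14 gene lists were chosen with earlier results of these data known. All genes were named; full values go to those whose gene-end call differs between libraries, to the strongest gene-end regions and to the strongest regions of 1 cell type or genotype, and sites outside this rule were chosen after their values were seen. Ratios have exact 95% conditional intervals, shares Wilson intervals. Python 3.11.15, pandas 2.3.3 and scipy 1.17.1 were used, and the steps were tested on simulated data. A marker gene is not reported here by name. No test was run, since no group has a replicate.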

Additional observations from a re-analysis of the deposited data

How the results depend on the processing

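No paired analysis was possible because each group is 1 library and the labels give no replicate numbers; for the same reason no library could be left out. Of 104 recomputed values 75 stayed and 29 moved, and a change of direction was not scored. With equal list lengths the order of the cell types did change. Joint regions went from 33 in DN3 alone and 17 in naive cells alone to 13 and 27. Shares without a counterpart in the other cell type, larger in DN3 as reported, became larger in naive cells in both genotypes. Receptors called at a gene end in both naive and neither DN3 library, 0 as reported, became 3 with equal list lengths (Ccr2, Cxcr1 and Gpr174; 1.45% of all genes in place of 0.347%) and 2 with a 500 bp window (Ccr10 and Cxcr5; 0.337%). Within DN3, those called in the control alone, 0 as reported, became 1 with equal list lengths (Cx3cr1; 1.12% of all genes) and 2 with a −log10 q of at least 5 (Cxcr1 and Cxcr2; 1.2%). Those in the knockout alone, 1 as reported, became 0 with equal list lengths, a 500 bp or a 2 kb window (0.86%, 0.865% and 0.837%). Within naive cells, those in the control alone, 0 as reported, became 1 with equal list lengths (Ccr9; 0.749%) and 2 with a 2 kb window (Ccr4 and Ccr6; 0.356%), and those in the knockout alone became 1 with a 2 kb window (Ccr3; 1.99%). Regions around the receptors fell to 71 and 69 in control and knockout DN3 with equal list lengths. Within the gene bodies alone they numbered 42, 44, 40 and 39, and with 50 kb on either side 288, 285, 227 and 233, in the order control DN3, knockout DN3, control naive, knockout naive. The share of control DN3 regions without a knockout counterpart was 9.26% when at least 50% of a region had to be covered. With equal list lengths the share of control naive regions without a knockout counterpart was 14.4%. That of control DN3 without a control naive counterpart was 22.5% and the reverse 40%. That of knockout DN3 without a knockout naive counterpart was 26.1% and the reverse 37.3%. Over all regions these shares, and the share under the 50% rule, were not computed. They are therefore not read as a trait of the receptors. Joint regions numbered 13 in DN3 alone and 27 in naive cells alone with equal list lengths (16.1% and 14.8% of all), and regions at least 2-fold higher in naive cells 13 without centring (9.05% of all); these comparisons were chosen after seeing the data. At equal length the weakest region kept had a −log10 q of 22.9 and 20.2 in control and knockout DN3 and 1.32 and 5.91 in control and knockout naive cells, so weak regions such as those at Cxcr2 and S1pr5 cannot be placed on one depth scale across lists.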
